A study of Homo sapiens with 6 samples.

Results

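RMRP, RPPH1, RN7SK, RN7SL1, RN7SL2 and SNORD3A are the RNA components of 5 abundant ribonucleoprotein machines: RNase MRP, RNase P, the 7SK particle, the signal recognition particle (with 7SL RNA from both RN7SL1 and RN7SL2) and the U3 small nucleolar particle. They were taken by name, 6 of the 54261 genes in the count table, and they were chosen by their counts in this same comparison, so their difference between the groups is a description here and carries no test. The cells were A549, an established line from a human lung adenocarcinoma. In 3 libraries the long noncoding RNA SNHG17 had been knocked down with siRNA (si-SNHG17), and 3 libraries came from cells given a control siRNA (si-NC). The sources used here give neither the siRNA dose nor the time to harvest. The labels list the libraries as repeats without saying that they came from separate cultures, so the spread behind every p-value may be technical. The series asks how SNHG17 acts on growth and migration in this type of cancer.

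RNase P trims the 5′ leader from precursor tRNAs, and RNase MRP, built on a related RNA and sharing most of its proteins, cuts precursor ribosomal RNA. 7SK RNA holds the elongation kinase P-TEFb inactive through the protein HEXIM1, 7SL RNA is the scaffold of the particle that brings ribosomes making secreted proteins to the endoplasmic reticulum, and U3 guides early cleavage of precursor ribosomal RNA in the nucleolus. RMRP, RPPH1 and RN7SK are transcribed by RNA polymerase III from promoters upstream of the gene, which the SNAPc complex and BRF2 serve. 7SL is also a polymerase III product, whereas U3 is made by RNA polymerase II from a promoter that SNAPc also binds.

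Sequences of 4 of the RNAs are shown because the members share shortness, and because copies elsewhere in the genome decide how well reads can be assigned to them. The sequences are GENCODE release 29 transcripts, of which the first 300 bases are shown where they are longer (RPPH1 with 333 bases and RN7SK with 328), written 5′ to 3′ with T for U. In RMRP and RPPH1 the capitals mark GAANGTC, a short run found in both RNAs at nearly the same place, at base 70 and base 71. It was chosen after the sequences were read.
RMRP: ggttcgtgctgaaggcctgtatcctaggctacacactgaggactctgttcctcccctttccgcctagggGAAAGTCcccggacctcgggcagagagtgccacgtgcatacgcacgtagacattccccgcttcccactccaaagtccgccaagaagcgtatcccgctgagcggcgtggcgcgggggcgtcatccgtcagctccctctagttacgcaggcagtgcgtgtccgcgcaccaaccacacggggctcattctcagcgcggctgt
RPPH1: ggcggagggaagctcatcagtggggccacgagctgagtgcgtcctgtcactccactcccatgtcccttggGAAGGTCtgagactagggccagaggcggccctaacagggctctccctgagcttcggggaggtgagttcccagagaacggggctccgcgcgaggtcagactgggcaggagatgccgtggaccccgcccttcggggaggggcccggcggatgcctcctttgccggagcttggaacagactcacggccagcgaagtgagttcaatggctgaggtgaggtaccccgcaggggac
Of 9469 GENCODE transcripts of 200 to 350 bases, 609 (6.43%) held GAANGTC. The search read the RNA strand only, as did the searches below. In RPPH1 the last base of the run is also the first base of a CTGA, another motif searched.

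In 7SK the capitals mark GATC, written GAUC in RNA, the letters to which HEXIM1 is known to bind in the 5′ hairpin. Its 3 copies start at bases 12, 41 and 63.
RN7SK: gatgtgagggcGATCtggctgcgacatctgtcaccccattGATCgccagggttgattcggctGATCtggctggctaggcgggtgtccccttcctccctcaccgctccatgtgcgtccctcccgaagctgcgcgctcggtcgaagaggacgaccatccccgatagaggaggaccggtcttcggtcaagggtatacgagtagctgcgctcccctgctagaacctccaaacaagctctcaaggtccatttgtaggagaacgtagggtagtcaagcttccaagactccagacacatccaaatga
At least 1 GATC was present in 62.4% of the transcripts of that length and 3 or more in 8.79%, so the letters alone are common.

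The 7SL pair was compared by alignment. RN7SL1 and RN7SL2 matched at 295 positions, 98.3% of the alignment, and shared an uninterrupted run of 205 bases.

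In U3 the capitals mark TGATGA, letters found in a box C, at base 158, and CTGA, the letters of a box D, at bases 53, 104 and 209. Box C/D elements are the signature of the family of small nucleolar RNAs to which U3 belongs.
SNORD3A: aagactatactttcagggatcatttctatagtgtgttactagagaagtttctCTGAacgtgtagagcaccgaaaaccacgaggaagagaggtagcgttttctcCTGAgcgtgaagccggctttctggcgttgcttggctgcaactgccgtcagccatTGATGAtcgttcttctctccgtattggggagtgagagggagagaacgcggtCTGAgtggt
TGATGA was present in 13.9% of the transcripts of 200 to 350 bases and CTGA in 83.9%, and the end of the TGATGA in SNORD3A overlaps a GATC. SNORD3A differed from SNORD3B-1, SNORD3B-2 and SNORD3C at 1 position each (99.5% identity) and from SNORD3D at 3 positions (98.6%).

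The members fell into 2 kinds by how much of their sequence recurs elsewhere. None of the 219 windows of 50 bases in RMRP and none of the 284 in RPPH1 occurred in a GENCODE transcript from another locus. In RN7SK 215 of 279 windows (77.1%) did, in RN7SL1 211 of 250 (84.4%), in RN7SL2 217 of 251 (86.5%) and in SNORD3A 148 of 168 (88.1%). For 100 bases the shares were 52.0%, 74.5%, 82.1% and 40.7%, and again none for RMRP and RPPH1. Whether reads shared between copies were dropped, split or assigned to 1 copy, and whether strand was used, is not given in the sources used here. The values of RN7SK, both 7SL genes and SNORD3A are uncertain to that extent.

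All 6 were predicted to fold. The minimum free energy per 100 bases was -38.7 kcal/mol for RMRP, -48.7 for RPPH1, -33.2 for RN7SK, -45.5 for RN7SL1, -45.0 for RN7SL2 and -38.3 for SNORD3A. Protein-coding transcripts of 200 to 350 bases, 1027 of them, had a median of -30.7 and a range from the 5th to the 95th percentile of -44.5 to -19.7 kcal/mol. RPPH1 and both 7SL RNAs lay below that range, and RN7SK was the closest to the median. GC content was 49.8% in SNORD3A and 58.2% to 64.6% in the others, against a median of 52.7% in the coding transcripts.

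The libraries held 8643076 to 12477214 counts. SNHG17, the targeted gene, measured 7.82, 8.39 and 11.3 CPM (counts scaled to a library of 1000000) under si-SNHG17 and 38.7, 36.2 and 51.4 CPM under si-NC, a log2 fold change of -2.21 (standard error 0.167, edgeR quasi-likelihood adjusted p = 2.84e-07). No pair of libraries was identical. The si-NC replicate 3 library stood farthest from its group, with a chi-square per degree of freedom of 8.85 and 8.40 from the other two, against 38.4 to 55.3 between groups. Over all 15614 genes tested 3057 (19.6%) were higher and 3055 (19.6%) lower in si-SNHG17, 39.1% in all, and the median log2 fold change was 0.01. Of the epithelial markers EPCAM, KRT8, KRT18, KRT19, CDH1 and CLDN4, 4 were lower and 1 higher, and their summed level was 4998 to 5011 CPM in si-SNHG17 and 8429 to 9441 in si-NC. Nearly all of that sum was KRT8 (2530 against 4257 CPM on average) and KRT18 (2280 against 4355 CPM). KRT19 was the higher one (116 against 86.0 CPM), and EPCAM, at 0.950 against 1.53 CPM, did not pass. The summed level of 10 immune markers was 19.9 to 22.8 against 31.8 to 45.7 CPM, nearly all of it CD14, at 18.6 to 21.4 against 31.2 to 43.5 CPM, with PTPRC, CD3E, MS4A1, FCGR3A and NKG7 among those at 0. For 10 stromal and endothelial markers it was 54.0 to 62.1 against 56.2 to 66.0 CPM, with COL1A2 and COL3A1 at 0. Nearly all of that sum was ACTA2 (30.96 against 34.45 CPM on average) and COL1A1 (25.3 against 24.3 CPM), neither of which passed. The mitochondrial genome supplied 4.33% of counts under si-SNHG17 and 7.80% under si-NC. The part of these shifts in the results below was not tested.

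All 6 RNAs were higher in every si-SNHG17 library than in any si-NC library. Groups failed to overlap in that direction for 25.1% of the genes tested. All 6 were also among the genes called higher at an adjusted p under 0.05, which were 19.6% of those tested; both counts follow from how the members were picked. Levels below are CPM on library sizes scaled by the trimmed mean of M values (TMM), and log2 fold changes are si-SNHG17 over si-NC. In bulk RNA, fewer cells of a type and less RNA per cell cannot be told apart.

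RMRP, the RNA of RNase MRP, was counted 154, 197 and 193 times under si-SNHG17 and 14, 7 and 12 times under si-NC. Its level was 16.1, 15.7 and 22.0 CPM against 1.59, 0.690 and 1.12 CPM. The si-SNHG17 libraries lay close together and the si-NC libraries were all low, near the detection limit at which 3 counts are worth 0.240 to 0.347 CPM. The means were 17.9 ± 3.52 and 1.14 ± 0.452 CPM (SD, n = 3 each), and the log2 fold change was 3.98 (standard error 0.259), the third largest of the 15614. RMRP lies on chromosome 9 from 35657750 to 35658019, minus strand (RefSeq, GRCh38.p14).

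RPPH1, the RNA of RNase P, was the least counted member. It had 27, 40 and 36 counts under si-SNHG17 and 4, 3 and 3 under si-NC, or 2.82, 3.20 and 4.10 against 0.455, 0.296 and 0.281 CPM. The control libraries therefore sat at about the level that a count of 0 allows, and the fold rests on 10 control counts in all. The log2 fold change was 3.26 (standard error 0.390), the widest error among the members. The ratio of the summed counts per library total was 10.1, with an exact binomial 95% interval of 5.29 to 21.8 that covers counting error only. For RMRP the same ratio was 16.2 (11.4 to 23.8), so the intervals of these related RNAs overlapped. RPPH1 lies on chromosome 14 from 20343071 to 20343411, minus strand.

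RN7SK had 158, 165 and 177 counts under si-SNHG17 and 18, 12 and 13 under si-NC. This was 16.5, 13.2 and 20.2 CPM against 2.05, 1.18 and 1.22 CPM, so the groups were far apart. The means were 16.6 ± 3.50 and 1.48 ± 0.490 CPM, and the log2 fold change was 3.49 (standard error 0.250). The RN7SK gene is on chromosome 6 from 52995620 to 52995951, plus strand.

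RN7SL1 had 281, 383 and 374 counts under si-SNHG17 and 61, 82 and 68 under si-NC. Its level was 29.3, 30.6 and 42.6 CPM against 6.94, 8.09 and 6.37 CPM. The groups were well apart, but by less than for RMRP or RN7SK, with a log2 fold change of 2.25 (standard error 0.170). RN7SL2, its near-twin, had 307, 350 and 258 counts against 56, 71 and 111, and 32.01, 27.96 and 29.4 against 6.38, 7.002 and 10.4 CPM. The log2 fold change of RN7SL2 was 1.90 (standard error 0.166), the smallest of the 6. When all rows for 7SL and its copies were summed, the log2 fold change of the sum was 1.59 in place of 2.25 for RN7SL1 alone, a lower value by a factor of over 1.5 on the linear scale. RN7SL1 lies on chromosome 14 from 49586580 to 49586878, plus strand, and RN7SL2 on the same chromosome from 49862551 to 49862849, minus strand.

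SNORD3A, the main U3 gene row, had 156, 152 and 268 counts under si-SNHG17 and 16, 31 and 22 under si-NC. Its level was 16.3, 12.1 and 30.5 CPM against 1.82, 3.06 and 2.06 CPM. The third si-SNHG17 library stood well above the other two, which gave the largest spread relative to its mean in that group, 19.7 ± 9.65 CPM, against 2.31 ± 0.656 CPM in si-NC. The log2 fold change was 3.05 (standard error 0.338), and it was 2.60 to 3.32 when single libraries were left out. SNORD3A lies on chromosome 17 from 19188016 to 19188232, plus strand.

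**Figure D1:**
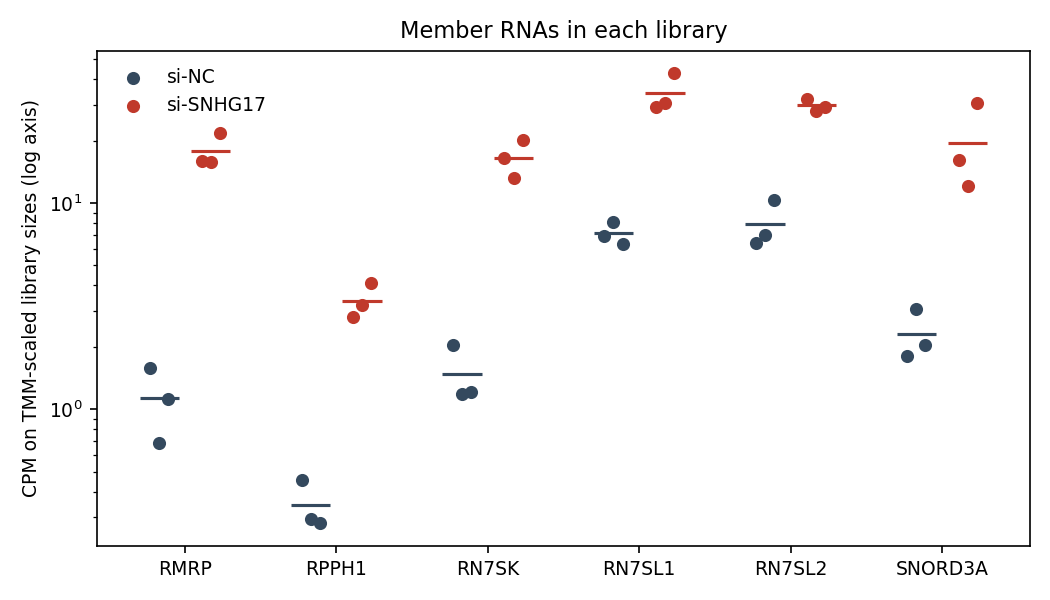
Level of each RNA in each library, in CPM on TMM-scaled library sizes (log axis); points are libraries and bars are group means. The 3 si-SNHG17 points of each RNA lie above all 3 si-NC points, with RPPH1 lowest (0.344 CPM on average in si-NC) and the 2 7SL genes highest.

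The proportions among the 6 RNAs are a description, since the members were picked from this same comparison. The third si-SNHG17 library had the highest CPM for 5 of the 6, RN7SL2 being highest in the first. The raw count of RMRP per count of RN7SL1 was 0.548, 0.514 and 0.516 in si-SNHG17 and 0.230, 0.0854 and 0.176 in si-NC. This ratio separated the groups. RMRP per RPPH1 was 5.70, 4.93 and 5.36 against 3.50, 2.33 and 4, with few control counts behind it. RMRP per RN7SK was 0.975, 1.19 and 1.09 against 0.778, 0.583 and 0.923, a smaller gap with no overlap. RN7SL1 per RN7SL2 was 0.915, 1.09 and 1.45 against 1.09, 1.15 and 0.613, and overlapped. As a description over 6 libraries that share the same group difference, the root mean square difference between centred log2 profiles was smallest for RPPH1 and RN7SK (0.277), then RMRP and RN7SK (0.314) and the 7SL pair (0.378). It was largest for RMRP and RN7SL2, at 1.09.

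Between genes, levels are compared per kilobase of RNA. The 6 together held 0.0123% of counts under si-SNHG17 and 0.00200% under si-NC. How these counts relate to levels in the cell was not tested. In si-SNHG17 the order was RN7SL1 at 114.3 ± 24.6 CPM per kilobase, RN7SL2 at 99.6 ± 6.87, SNORD3A at 90.6 ± 44.5, RMRP at 66.4 ± 13.05, RN7SK at 50.03 ± 10.5 and RPPH1 at 9.89 ± 1.94. Each neighbouring pair overlapped over libraries except RN7SK and RPPH1. In si-NC it was RN7SL2 at 26.5 ± 7.23, RN7SL1 at 23.9 ± 2.93, SNORD3A at 10.7 ± 3.02, RN7SK at 4.47 ± 1.48, RMRP at 4.21 ± 1.67 and RPPH1 at 1.01 ± 0.284. There the 7SL pair overlapped, as did RN7SK and RMRP, while SNORD3A stood between these pairs and RPPH1 below them.

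Annotated copies of the members split by likeness. Of 630 further 7SL rows, RN7SL3, RN7SL4P and RN7SL5P shared a window of 100 bases with RN7SL1 or RN7SL2. Together they had 53, 71 and 82 counts under si-SNHG17 and 9, 24 and 14 under si-NC, a ratio of 4.48 per library total. The other 627 rows, mostly pseudogenes, had 69, 80 and 62 counts against 87, 83 and 100, a ratio of 0.772. The rows sharing a window were higher in si-SNHG17 and the others lower, with no overlap of libraries in either. An exact two-sided permutation test of either share gave p = 0.1, the smallest that 3 against 3 libraries allow, and 0.153 adjusted over the 29 classes and gene types compared. The split was made after the data had been seen. RN7SL3, an expressed 7SL gene, had 32, 37 and 39 counts against 2, 15 and 7 (log2 fold change 2.12). RN7SL5P had 15, 22 and 30 against 5, 9 and 3 (log2 fold change 1.92). Both reached the low-count filter only through si-SNHG17.

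Of 293 rows for copies of 7SK, 4 shared a window of 100 bases with RN7SK and had 8, 9 and 8 counts under si-SNHG17 against 1, 7 and 0 under si-NC. The control libraries differed among themselves, and the log2 ratio of 1.65 became 3.88 without si-NC replicate 2. The other 289 rows had 23, 45 and 61 counts against 41, 43 and 42, which overlapped (ratio 1.04, exact permutation p = 1). RN7SKP97, the most counted of them, had 4, 13 and 28 against 13, 23 and 10 counts, also overlapping (log2 fold change -0.06, edgeR adjusted p = 0.942). The 4 U3 copies had 65, 80 and 128 counts against 6, 4 and 8, a ratio of 15.6, against 8.21 for the summed counts of SNORD3A itself, but from few control counts. Single U3 rows shifted between libraries, SNORD3B-2 with 45, 7 and 80 counts and SNORD3B-1 with 9, 49 and 25 in si-SNHG17. SNORD3D, 98.6% identical to SNORD3A, had 11, 15 and 14 counts against 5, 1 and 0, and reached the low-count filter only through si-SNHG17. The 3 rows for copies of RMRP and RPPH1 had no count.

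Other short RNAs were counted beside the members. The U1, U2, U4, U4atac, U5, U7, U11 and U12 rows, spliceosomal and histone-processing RNAs made by RNA polymerase II from SNAPc-bound promoters, had 59, 83 and 111 counts under si-SNHG17 and 11, 6 and 3 under si-NC, a ratio of 12.3 per library total. Most were rare. RNVU1-7, a U1 variant gene, had 14, 21 and 19 counts against 0, 1 and 0, and reached the low-count filter only through si-SNHG17. Rows with a pseudogene name ending in P were left out of this class and of the next, unlike those of 7SL and 7SK. Among them RNU2-2P, a U2 row, had 12, 13 and 30 counts against 3, 3 and 0. The other polymerase III RNAs together (U6, U6atac, Y, vault, BC200, snaR and 5S rows without pseudogene names) had 18, 31 and 19 counts against 8, 11 and 10, a ratio of 2.28. Neither class overlapped between the groups (exact permutation p = 0.1 for each). Non-overlap was common among the classes and gene types compared, although some overlapped. It was also seen for all mRNA rows, at a ratio of 1.004, and all lncRNA rows, at 0.969. Of the left-out rows, RNA5SP202 had 14, 13 and 16 counts against 1, 3 and 2, whereas RNA5SP244 had 16, 24 and 18 against 9, 14 and 17. RNU6-146P had 16, 29 and 8 against 14, 8 and 6, which overlapped. RNU2-2P and these 3 rows were named after their values had been seen, and the counts left out are large beside the class total.

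Rows for small nucleolar RNAs outside the U3 family had many counts and moved little as a sum. They took 581.5 ± 49.1 CPM of the raw library total in si-SNHG17 and 517.0 ± 22.5 in si-NC, a ratio of 1.12 (exact permutation p = 0.2), and 8 of 52 tested rose while 3 fell. Among the 8, SNORD34 and SNORD10 reached the low-count filter only through si-SNHG17. SNORD141A (log2 fold change 0.02) alone had 2473, 2691 and 2277 of the 5579, 6600 and 5413 class counts in si-SNHG17. In si-NC it had 2027, 2738 and 2375 of 4654, 5477 and 5398. Single rows moved more, SNORD139 by 2.11 (edgeR adjusted p = 9.54e-06) and SNORD86 by -0.93 (adjusted p = 0.000469). The tRNA rows had a ratio of 1.10 (exact permutation p = 0.2). Whether the reads of the tRNA and small nucleolar RNA rows came from those small RNAs themselves was not tested. RNAs of the Cajal body had 146 against 106 counts in sum, a ratio of 1.36 (exact permutation p = 0.3), and the telomerase RNA TERC is listed at 0 in every library, where the part of the annotation or counting was not tested. SCARNA12, the most counted of the class to be tested, had -0.23 (edgeR adjusted p = 0.712). The replication-dependent histone mRNAs, a class that typically lacks poly(A) tails, had 179.8 ± 5.74 CPM of the raw library total against 85.1 ± 4.52, a ratio of 2.11 (exact permutation p = 0.1). Whether the histone RNAs counted here lacked tails was not tested. HIST1H1C alone had 950, 1172 and 846 of the 1689, 2183 and 1609 class counts in si-SNHG17. In si-NC it had 291, 303 and 388 of 763, 821 and 977. Of 11 histone rows tested 7 rose and 4 did not pass, among them HIST1H2BK with 0.08 (edgeR adjusted p = 0.746). Among the 7, HIST2H2AA3 and HIST1H2BJ reached the low-count filter only through si-SNHG17, which favoured a rise. Whether RNA was selected or depleted before library making is not given in the sources used here, and the part of such a step was not tested.

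**Figure D2:**
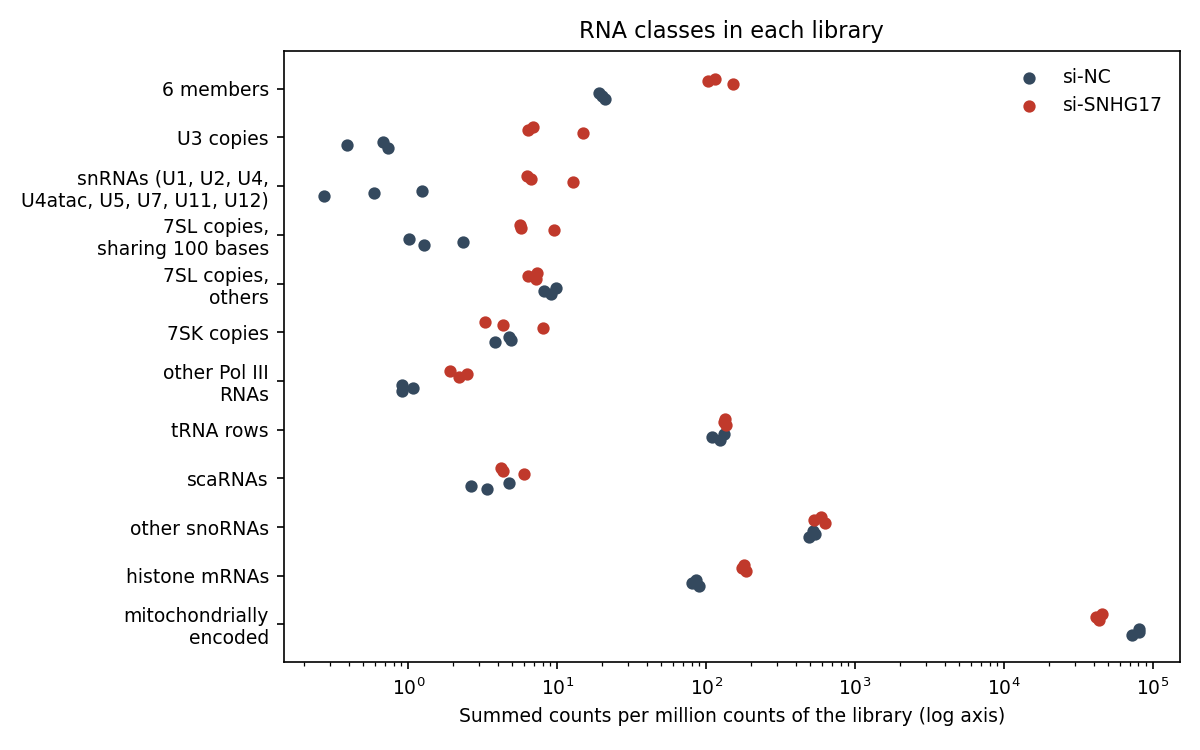
Summed counts of each RNA class, as CPM of the raw library total (log axis), 1 point per library. The 6 members, the U3 copies and the polymerase II snRNAs separate the groups widely, while tRNA rows (ratio 1.10) and other snoRNAs (ratio 1.12) nearly coincide.

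Other rows annotated at about the members' length were seldom higher. Many of them carry pseudogene names of mRNA genes, such as RPS23P8 and RPS15AP1. Whether their reads came from RNAs of that length was not tested. Among 217 other tested rows whose longest GENCODE transcript has over 200 and up to 400 bases, 9 rose (4.15%) and 30 fell (13.8%), with a median log2 fold change of -0.14. The 9 were SNORD3D, RN7SL3 and RN7SL5P, which are copies of members, FTH1P15, FOXC2-AS1, HMGA1P2, EIF1P3, RPS23P8 and RPS15AP1. At up to 200 bases 16 of 106 rose (15.1%), and from 2000 to 5000 bases 23.1% of 6733 did. SNORD3D, RN7SL3, RN7SL5P and FOXC2-AS1 reached the low-count filter only through si-SNHG17. So did RNVU1-7, RNU2-2P, MIR147B and RNA5SP202 among the shorter rows. For such rows a rise was favoured in advance, and these shares include them. Whether rows that fell passed only through si-NC was not checked.

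**Figure D3:**
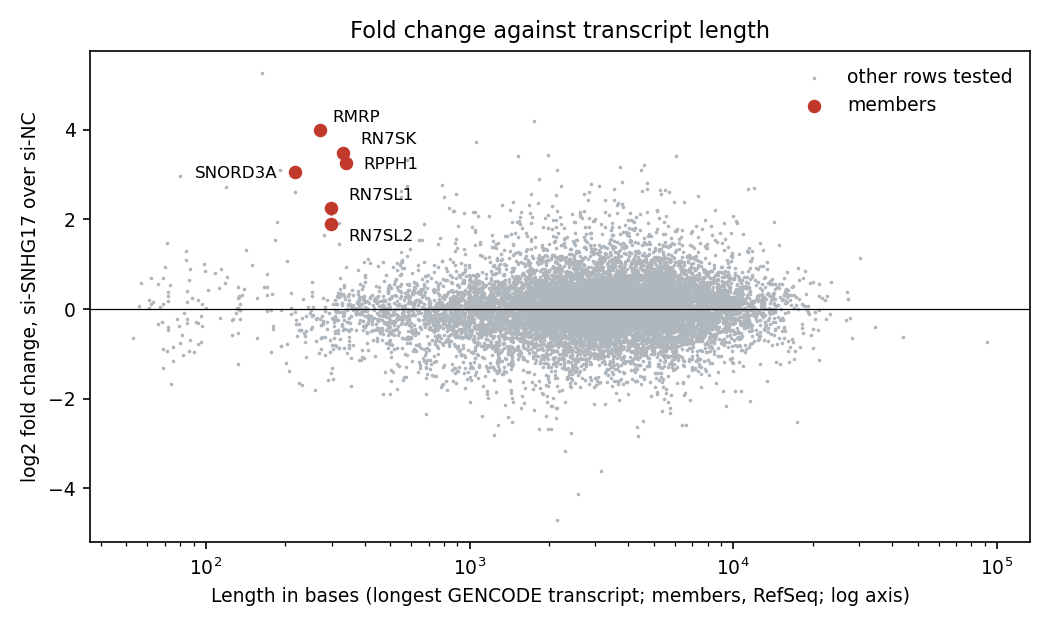
Log2 fold change of each tested row against its length in bases (log axis); members are in red. All 6 members lie between 1.90 and 3.98, above nearly all rows annotated at 200 to 400 bases. Those rows, many with pseudogene names, have a median of -0.14.

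The proteins that bind these RNAs were read against the 39.1% of all genes called and the 19.6% called higher; no difference from that background was tested. Of 11 RNase MRP and RNase P proteins, 1 rose, 2 fell and 8 did not pass the test, so 27.3% were called, with a median log2 fold change of 0.06. POP5, a core subunit of both enzymes, fell from 36.5 ± 4.64 to 14.9 ± 0.973 CPM (log2 fold change -1.30, edgeR adjusted p = 2.85e-06). POP1, the largest shared subunit, fell by 0.65 (adjusted p = 0.00331). RPP38 rose by 0.32 (adjusted p = 0.0479), a call lost in 7 of 15 alternative settings, and POP7 had -0.29 (adjusted p = 0.0662).

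Of the 7 genes for the 7SK particle and P-TEFb, 2 fell and 5 did not pass (28.6% called, median -0.07). MEPCE, which caps the 5′ end of 7SK RNA, fell from 52.2 ± 2.73 to 17.1 ± 0.0952 CPM, a log2 fold change of -1.61 (edgeR adjusted p = 5.53e-08). HEXIM1, the inhibitor that 7SK recruits, fell from 142.9 ± 8.66 to 87.3 ± 3.81 CPM, a log2 fold change of -0.71 (adjusted p = 1.31e-05). LARP7, which holds the 3′ end of 7SK RNA, had -0.07 (adjusted p = 0.726), HEXIM2 had -0.21 (adjusted p = 0.239), and the kinase subunit CDK9 had 0.23 (adjusted p = 0.0506).

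Among signal recognition particle proteins and their receptor, 7 of 8 genes were tested and 2 fell and 5 did not pass (28.6% called, median -0.13). SRP14, which with SRP9 binds the Alu domain of 7SL RNA, fell from 160.7 ± 5.33 to 78.8 ± 9.53 CPM, by 1.03 on the log2 scale (edgeR adjusted p = 1.41e-06). SRP9, its partner, fell by 0.37 (adjusted p = 0.0117, and 0.0691 without si-SNHG17 replicate 1). SRP68 had -0.16 (adjusted p = 0.0965) and the receptor subunit SRPRA 0.18 (adjusted p = 0.0654). SRPRB is listed at 0 in every library, which may reflect the annotation or counting and was not tested.

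Of 8 U3 particle proteins, 2 rose and 6 did not pass (25% called, median 0.11). MPHOSPH10 rose by 0.46 (edgeR adjusted p = 0.0145) and IMP3 by 0.31 (adjusted p = 0.0137), both partners of U3 in early ribosomal RNA cleavage. Both calls were lost without si-SNHG17 replicate 3 and without si-NC replicate 2, and that of MPHOSPH10 in 4 of 15 alternative settings in all. Without si-SNHG17 replicate 2, and without si-NC replicate 1, 1 call was left. The box C/D core proteins NOP58 and NOP56 had -0.38 (adjusted p = 0.138) and 0.28 (adjusted p = 0.230).

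Of 31 tested genes for RNA polymerase III and its factors, 8 rose and 4 fell (38.7% called, median 0.03). BRF2, used at upstream promoters such as those of RMRP, RPPH1 and RN7SK, rose from 13.7 ± 0.409 to 23.9 ± 5.47 CPM (log2 fold change 0.80, edgeR adjusted p = 0.00125). BRF1, used at tRNA genes, had -0.11 (adjusted p = 0.510), and the repressor MAF1 had 0.03 (adjusted p = 0.806). SNAPC1, of the complex that binds the upstream promoters, rose by 0.56 (adjusted p = 0.00144). The other subunits were looked at after SNAPC1 had been seen: SNAPC4 had 0.40 (adjusted p = 0.0244, a call lost in 3 of 15 alternative settings), SNAPC2 0.34 (adjusted p = 0.0345, lost in 7 of 15), SNAPC3 -0.03 (adjusted p = 0.951) and SNAPC5 -0.12 (adjusted p = 0.560). In the same list TBP fell by 0.54 (adjusted p = 0.00674) and POU2F1 by 0.47 (adjusted p = 0.0162), while ZNF143 rose by 0.49 (adjusted p = 0.00399). They too were named after their values had been seen. POLR1C and POLR1D, subunits shared by polymerases I and III, went apart, with a rise of 0.76 (adjusted p = 5.55e-05) and a fall of 0.46 (adjusted p = 0.000739).

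Of 15 genes that bind, trim or degrade small RNA ends, 3 rose and 1 fell (26.7% called, median 0.19). ZCCHC8, of the nuclear exosome targeting complex, rose by 0.38 (edgeR adjusted p = 0.00695). PARN, a deadenylase that trims small RNA ends, fell by 0.40 (adjusted p = 0.0100), a call lost without si-SNHG17 replicate 1. PAPD5 (adjusted p = 0.0453) and TUT1 (adjusted p = 0.0487), terminal nucleotidyltransferases, rose by 0.32 and 0.29, and lost the call in 8 and 10 of the alternative settings. SSB, the La protein that binds fresh polymerase III ends, had -0.15 (adjusted p = 0.198).

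**Figure D4:**
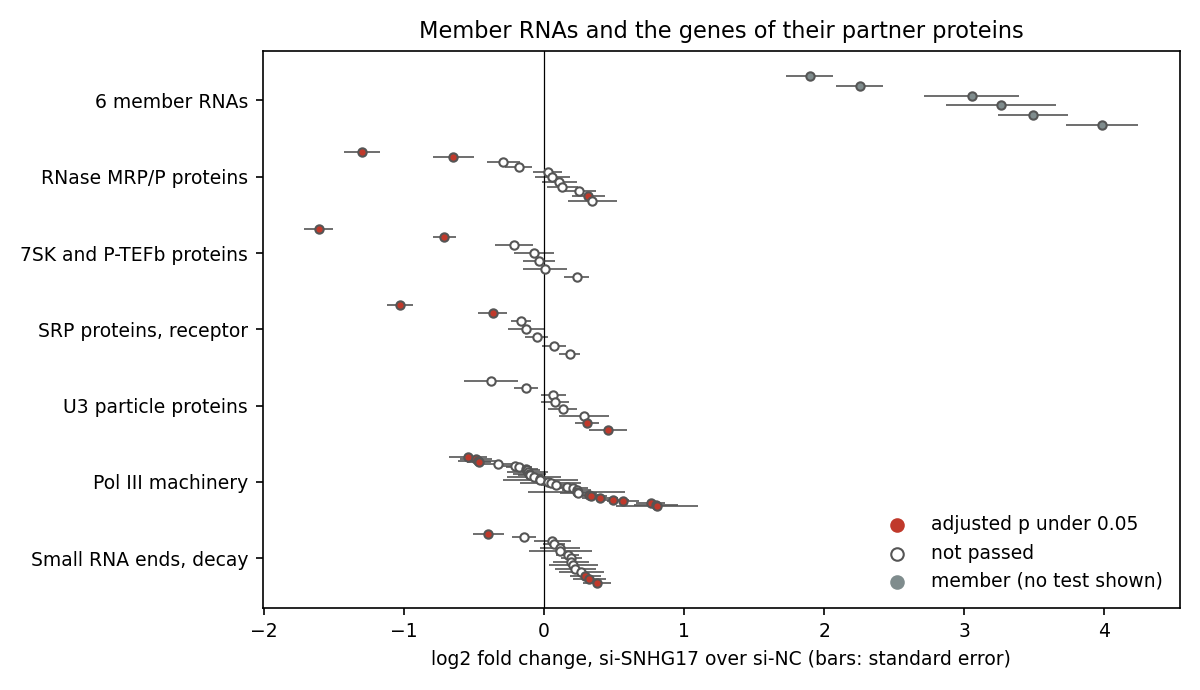
Log2 fold change of the 6 RNAs (no test shown) and of every tested gene in each partner list; bars are standard errors and filled points passed an adjusted p under 0.05. The RNAs lie at 1.90 to 3.98, whereas partner genes run from -1.61 (MEPCE) to 0.80.

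Among the members' neighbours on the chromosome that were tested, RN7SL3, the 7SL row 8637 bases from RN7SL2 on the same strand, differed most (log2 fold change 2.12, against 1.90 for RN7SL2). CCDC107, which starts 271 bases from RMRP on the opposite strand, rose from 22.0 ± 1.42 to 33.3 ± 3.47 CPM (log2 fold change 0.60, edgeR adjusted p = 0.000991). CCNB1IP1, 9759 bases from RPPH1, rose by 0.59 (adjusted p = 0.000358). PARP2, 171 bases from RPPH1 on the opposite strand, is listed at 0 in every library, and whether the annotation or the counting set that value could not be checked. GSTA4, 242 bases from RN7SK, had -0.19 (adjusted p = 0.262) and ICK on its other side 0.20 (adjusted p = 0.311).

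Around the 7SL genes, RPS29 overlaps RN7SL1 on the opposite strand and was too low to test, at 0.458 and 0.140 CPM. The overlap is of whole gene spans, and whether exons overlap was not checked. Reads of any shared stretch cannot be told apart without strand. The low count of RPS29, a ribosomal protein gene, may itself reflect the annotation or counting, so it says little about the overlap. RPL32P29, to the left of RN7SL1, rose by 0.71 (edgeR adjusted p = 0.00358), and LRR1 to its right had -0.43 (adjusted p = 0.0727). ARF6, 30243 bases from RN7SL2, rose by 0.30 (adjusted p = 0.00728, and 0.0514 without si-NC replicate 2). SNORD3C, 1433 bases from SNORD3A, and KYNUP1 on its other side were too low to test.

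Genes whose profile over the 6 libraries lay nearest to the members, by the root mean square difference of centred log2 CPM among 11342 genes with a mean of at least 5 CPM, were protein-coding once the members were set aside. For RMRP they were RHCG (0.425), PI3 (0.432), CHST2 (0.654), INHBA (0.662) and CRTAC1 (0.679). For RN7SK they were PI3 (0.230), RHCG (0.358), INHBA (0.452), CHST2 (0.459) and PTBP2 (0.464). RHCG and PI3 led both lists, and the measure mainly reflects a large difference between the groups. The minimum of 5 CPM left out rarer small RNAs that were also higher in si-SNHG17, such as RN7SL3, SNORD3D and RNVU1-7. That the nearest genes were protein-coding follows in part from it.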

How the data were processed

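The authors deposited a table of raw counts by gene for 6 libraries of total RNA, made with an Ion Total RNA-Seq kit and sequenced single-end on an Ion Proton, per the labels' protocols; the genome build was GRCh38, per the submitters' processing notes. The sources used here name no aligner, counting tool or annotation, nor how strand and shared reads were handled. Groups came from the titles. The members and lists were chosen with earlier results of these data known.

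Counts were fitted in R 4.3.3 with edgeR 4.0.16 (filterByExpr, TMM, glmQLFit, glmQLFTest, group as the only term, Benjamini-Hochberg over 15614 genes, threshold 0.05), after a test on simulated data. The low-count minimum was 1.01 CPM in 3 libraries. All 6 members passed it: RPPH1 reached it in 0 of 3 si-NC libraries and RMRP in 2 of 3, so both passed through si-SNHG17. Shares of RNA classes used library totals and exact permutation tests. A count of 0 allows 3 counts, for counting error only.

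Sequences are GENCODE release 29 transcripts, searched in Python 3.11.15 and folded with RNAfold 2.7.2, and positions are RefSeq GRCh38.p14. Named genes were SNHG17, the members, their neighbours and overlapping genes, 4 genes with the smallest p of each list, HEXIM1, LARP7, MEPCE, POP1, SSB, MAF1, BRF1 and BRF2, the most counted rows of each class, and the 5 nearest profiles of RMRP and RN7SK; not all are reported, and a few sequences and 1 marker are not reported here. As alternatives, other scalings were tried, then DESeq2 1.42.0, limma-voom 3.58.1, other filters, a replicate block, summed 7SL and U3 rows, other denominators for shares and leaving out each library.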

Additional observations from a re-analysis of the deposited data

How the results depend on the processing

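All 6 members kept their direction in every alternative run, with log2 fold changes of 3.72 to 4.27 for RMRP, 3.12 to 3.49 for RPPH1, 3.33 to 3.77 for RN7SK, 1.59 to 2.36 for RN7SL1 (1.59 with all 7SL rows summed), 1.77 to 2.15 for RN7SL2 and 2.60 to 3.32 for SNORD3A. Over all genes 6112 calls became 4911 to 6601 when 1 library was left out and 5422 with DESeq2, and the share of calls that were higher went from 50% to 55.5% with library totals only and 45.9% with scaling by protein-coding rows. Same-numbered libraries did not deviate together (correlations 0.07, -0.13 and -0.11), so the numbers were not taken to pair them, and the replicate block gave 5579 calls.

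With single libraries left out, calls ran from 1 to 3 among signal recognition particle genes, 0 to 3 among U3 proteins and 1 to 3 among the small RNA end genes, the last falling from 4 to 2 with protein-coding scaling, DESeq2 or the replicate block. Values near 0 changed sign. With single libraries left out, LARP7 ran from -0.161 to 0.0208, MAF1 from -0.00112 to 0.0617, SNAPC3 from -0.196 to 0.211, SNAPC5 from -0.180 to 0.00705, RN7SKP97 from -1.02 to 0.369, SCARNA12 from -0.558 to 0.151 and HIST1H2BK from -0.123 to 0.244. MAF1 became -0.00533 with protein-coding scaling and SNAPC3 0.0109 with library totals. The log2 share ratio of all 7SK copies ran from -0.237 to 0.458 without single libraries. For 2 classes defined after seeing the data it ran from 1.06 to 3.88 (7SK copies sharing a 100-base window) and from -0.482 to 0.339 (the others, -0.00373 without mitochondrially encoded rows). The cause of these changes was not tested. Depth limited RPPH1 most, with 10 counts in the 3 si-NC libraries together.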
